A study of Mus musculus with 20 samples.

Results

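Ankyrins, spectrins and the adhesion molecules of the L1 family form one membrane skeleton, and 7 of its genes were followed across 20 MAPIT-seq libraries of mouse embryo and embryonic brain sections. The genes were Ank2, Ank3, Sptan1, Sptbn1, Nrcam, Nfasc and L1cam, 7 of the 38414 gene symbols in the expression tables, and all 7 were listed in each of the 4 tables. They were chosen by name with their transcript levels and edited shares in these libraries already known, so those values are given as a description and carry no p-value.

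Ankyrins are adaptors that tie membrane proteins to the spectrin lattice, which in turn is pinned to short actin filaments. Ank2 encodes ankyrin-B, known from the axon shaft, and Ank3 encodes ankyrin-G, which gathers sodium and potassium channels at the axon initial segment and the node of Ranvier. Both genes have giant neuronal isoforms made by including one very long coding exon. Sptan1 encodes alpha-II spectrin and Sptbn1 encodes beta-II spectrin, the partners that pair into the lattice under the axon membrane. L1cam, Nrcam and Nfasc encode immunoglobulin-type adhesion molecules of axons whose cytoplasmic tails bind ankyrin.

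MAPIT-seq reads the RNA contacts of a protein in fixed tissue. A primary antibody, here anti-G3BP1 against the stress granule protein G3BP1 or rabbit IgG, is followed by a guinea pig anti-rabbit antibody and the fusion rAPOBEC1-pAG-hADAR2, which leaves A-to-G and C-to-T changes in nearby RNA. The series asks how the transcripts bound by G3BP1 change during development. Each group held 2 libraries, all from C57BL/6J wild-type animals and made from poly(A) RNA of sections embedded in OCT medium. Sections labelled E10.5 fixed embryo gave anti-G3BP1, IgG and untreated libraries, and so did sections labelled E10.5 fresh-frozen embryo. Fresh-frozen brain gave anti-G3BP1 and IgG libraries at E12.5 and at E16.5. Per the labels, antibody libraries were fixed with 0.2% formaldehyde. No formaldehyde percentage is recorded for the untreated libraries, although those of the first embryo are titled as fixed. IgG libraries show what the fusion does without a specific antibody, and untreated libraries show what sequencing and natural editing do without the fusion. The labels do not say that the libraries of a group came from separate animals, so p-values measure a spread between libraries that may be technical.

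The 6 libraries labelled E10.5 fresh-frozen went against that label. Gria2, a glutamate receptor subunit of maturing neurons, stood at 248 to 420 TPM in them, against 0.275 to 1.72 TPM in the fixed E10.5 embryo, 14.9 to 20.7 TPM in E12.5 brain and 71.4 to 97.6 TPM in E16.5 brain. Myl7, a heart gene, stood at 0 to 10.7 TPM in them, against 1808 to 3099 TPM in the fixed embryo, and Afp, a fetal liver and yolk sac gene, at 0 to 1.02 against 195 to 421 TPM. They are called the fresh-frozen-labelled libraries throughout, and results that pool tables are also given without them. In the other 3 tables the marker sums went with the labels. TPM is scaled to gene length and library, and levels set between tables come from separately deposited tables. Read depth at the listed sites of Ank2 and Ank3 was uneven along the gene and differed between tables, as given below. Levels and ratios set between genes or tables are therefore approximate, and the effect of uneven depth on them was not tested. In bulk sections, fewer cells of a type and less RNA per cell cannot be told apart.

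The most edited bases of the 7 genes lay mainly in 3′ UTRs, and a few sites carry much of what follows. Their sequences come from GENCODE vM21 transcripts on GRCm38 (mm10), 29 bases each, read 5′ to 3′ on the strand of the gene with the edited base in capitals. The first set holds sites edited in all 4 anti-G3BP1 libraries of E16.5 brain and of the fresh-frozen-labelled table, the one with the most edited reads for each gene that has such a site. They were picked after their values were seen.
Ank2 A-to-G, 3′ UTR, chr3:126922373-126922401, minus strand: taacatatatatatAaatatattcacaaa
Ank3 A-to-G, 3′ UTR, chr10:70027017-70027045, plus strand: agagagagagagaaAgaaagaaagaactg
Sptbn1 A-to-G, 3′ UTR, chr11:30099902-30099930, minus strand: cttactaacacacaAcatgtggcttttct
L1cam A-to-G, 3′ UTR, chrX:73854816-73854844, minus strand: cgagtctctttcttAccacccgctaccct
Nrcam A-to-G, 3′ UTR, chr12:44599528-44599556, plus strand: ctgaaactgggagcAtaggaacaacttta
The next set holds sites that were edited in both anti-G3BP1 libraries of a table and in none of its other libraries, so their contrast in that table was used to choose them. They are 6 of the 12 sites with the most edited reads under that rule, picked after their values were seen to show 4 genes and both kinds of edit.
Ank2 A-to-G, 3′ UTR, chr3:126922369-126922397, minus strand: atatatatataaatAtattcacaaatata
Ank2 C-to-T, 3′ UTR, chr3:126922362-126922390, minus strand: tataaatatattcaCaaatatattcatat
Ank2 A-to-G, 3′ UTR, chr3:126921720-126921748, minus strand: ttcccatggtgataAcactaattgaatat
Ank3 A-to-G, 3′ UTR, chr10:70026873-70026901, plus strand: ccagaagtctctgaAgtacgatagatttt
Sptbn1 A-to-G, coding, chr11:30100524-30100552, minus strand: aaggataaagagaaAgacaaagagaagag
Nfasc C-to-T, 3′ UTR, chr1:132564746-132564774, minus strand: ttttttttgaatcaCtgtaaaaaaaaaag
The last pair are coding sites on which the E12.5 value of Nrcam rests and, in part, that of Sptan1.
Nrcam A-to-G, coding, chr12:44576751-44576779, plus strand: cagaggaagcgataAcgactgtggacgaa
Sptan1 C-to-T, coding, chr2:30031061-30031089, plus strand: tacgtcgagttcacCcgctcactctttgt
The first 3 Ank2 windows overlap each other, so one stretch of the Ank2 3′ UTR holds edited bases of both kinds.

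On GRCm38 the genes lie on 7 chromosomes. Ank2 (ENSMUSG00000032826) spans chr3:126921612-127499350 on the minus strand and Ank3 (ENSMUSG00000069601) spans chr10:69398773-70027438 on the plus strand. Sptan1 (ENSMUSG00000057738) spans chr2:29965560-30031451 on the plus strand and Sptbn1 (ENSMUSG00000020315) spans chr11:30099395-30268175 on the minus strand. Nrcam (ENSMUSG00000020598) lies at chr12:44328885-44601964 on the plus strand, Nfasc (ENSMUSG00000026442) at chr1:132564690-132741797 on the minus strand and L1cam (ENSMUSG00000031391) at chrX:73853778-73896105 on the minus strand. The giant exon of Ank2 is 6198 bases long (chr3:126941610-126947807) and that of Ank3 is 7680 bases long (chr10:69986083-69993762). Annotated 3′ UTR sequence, merged over transcripts, came to 4092 bases in Ank2, 5645 in Ank3, 3324 in Sptbn1, 4095 in Nrcam, 5868 in Nfasc, 1260 in L1cam and 358 in Sptan1. Exons of Ank2 overlap the opposite-strand gene Gm16958, those of Sptbn1 the opposite-strand gene Gm29237 and those of L1cam the same-strand gene Arhgap4. Whether reads were counted by strand is not given in the sources used here, so those levels may hold reads of the overlapping genes.

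The transcript levels of all 7 genes were lowest in the fixed E10.5 embryo except for Sptbn1, whose level there overlapped that of E12.5 brain. Summed over the 7 genes the level was 151 ± 11 TPM in fixed embryo (SD, n = 6), 375 ± 21.4 TPM in E12.5 brain (n = 4), 748 ± 48.9 TPM in E16.5 brain (n = 4) and 1430 ± 118 TPM in the fresh-frozen-labelled libraries (n = 6). The make-up of that sum differed between tables. Sptan1 gave 54.4% of it in fixed embryo, 38.2% in E12.5 brain, 32.0% in E16.5 brain and 13.9% in the fresh-frozen-labelled libraries, while L1cam gave 7.73%, 19.0%, 29.6% and 32.7% in the same order.

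In the fixed E10.5 embryo, whose summed markers of heart (2998 to 4839 TPM) and fetal liver (344 to 746 TPM) show tissue beyond the brain, Sptan1 stood first at 81.9 ± 4.98 TPM and Sptbn1 next at 26.0 ± 2.2 TPM (SD, n = 6). L1cam (11.8 ± 4.59), Nfasc (10.8 ± 2.70), Nrcam (8.75 ± 1.96) and Ank3 (7.84 ± 1.21 TPM) followed, each overlapping the next in its range over libraries, and Ank2 was lowest at 4.03 ± 0.428 TPM. E12.5 brain kept Sptan1 first at 143 ± 6.72 TPM (SD, n = 4), but L1cam was second at 71.4 ± 6.84 TPM and did not overlap its neighbours. Below it, the ranges of Nrcam (44.8 ± 5.23), Nfasc (37.6 ± 8.25), Ank3 (30.0 ± 2.01) and Sptbn1 (28.3 ± 4.63 TPM) overlapped from one to the next, and Ank2 was again lowest at 19.7 ± 2.57 TPM. By E16.5, L1cam (222 ± 21.8 TPM) overlapped Sptan1 (239 ± 10.9 TPM) at the top (SD, n = 4). Sptbn1 (77.0 ± 2.81) and Nfasc (71.6 ± 6.76 TPM) overlapped each other, Nrcam stood apart at 57.2 ± 4.79 TPM, and Ank2 (40.7 ± 3.05) and Ank3 (40.6 ± 1.75 TPM) were at the same level. Among fresh-frozen-labelled libraries L1cam was alone at the top, at 467 ± 37.6 TPM (SD, n = 6). The other 6 genes lay between 199 ± 22.7 TPM for Sptan1 and 125 ± 11.6 TPM for Nrcam, and each overlapped its neighbour.

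**Figure D1:**
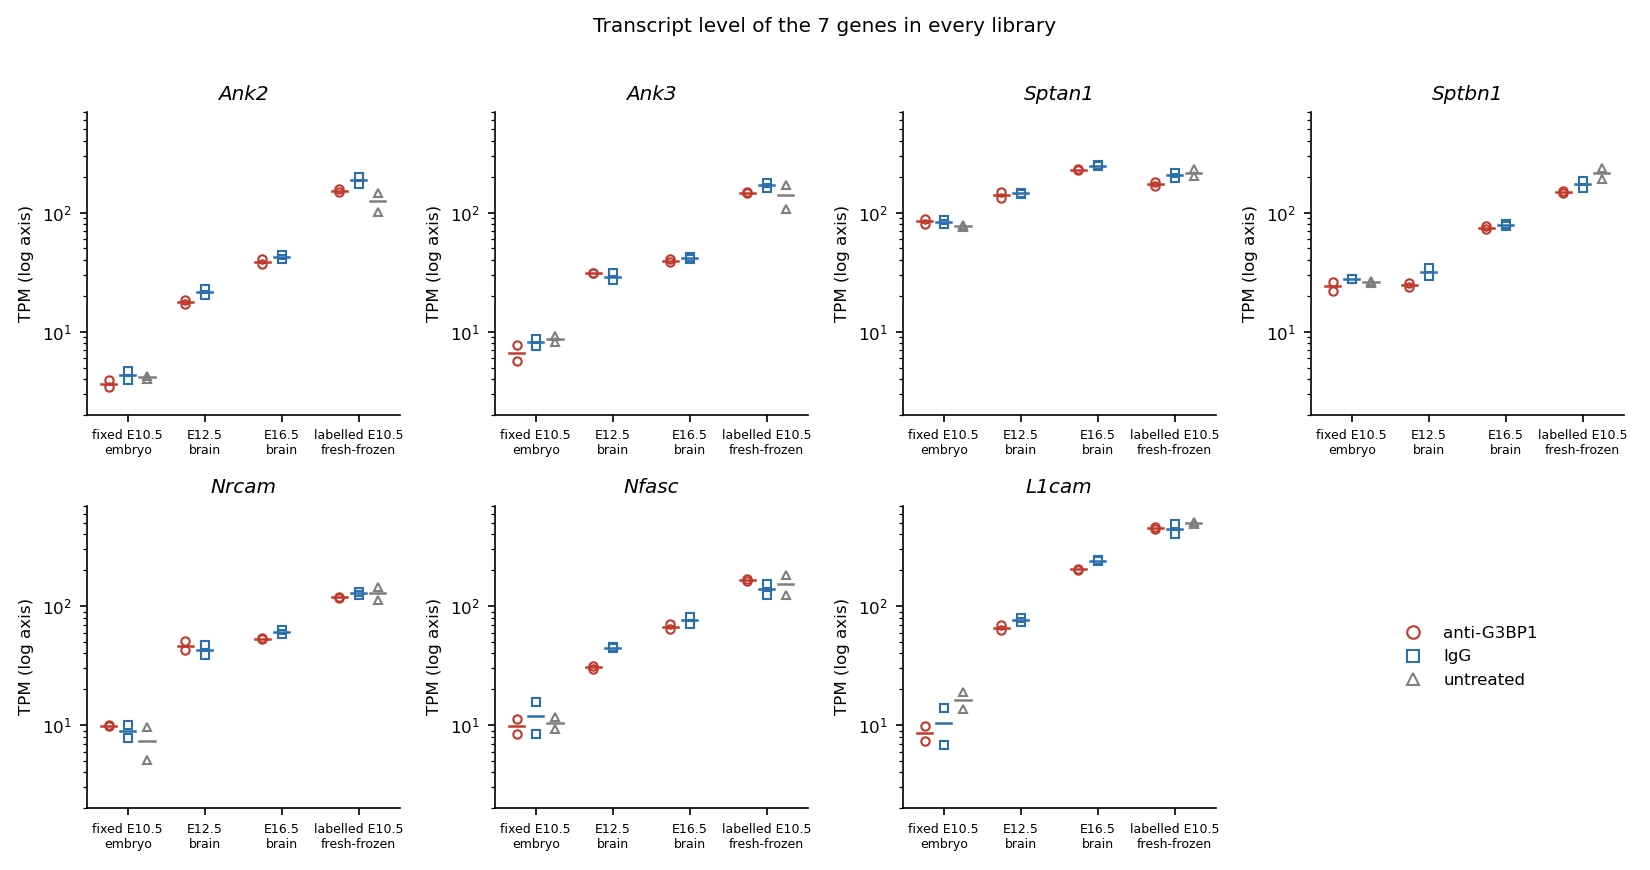
Transcript level (TPM, log axis) of the 7 genes in each of the 20 libraries, one panel per gene, with the tables along the horizontal axis and anti-G3BP1, IgG and untreated libraries in separate colours. Ank2 and L1cam spread over the widest range, from 4.03 and 11.8 TPM on average in the fixed E10.5 embryo to 155 and 467 TPM in the fresh-frozen-labelled libraries, and over all 4 tables Sptan1 spread over the narrowest.

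Among the ankyrin genes, Ank2 read 3.41 and 3.91 TPM in anti-G3BP1 libraries of the fixed embryo, 4.68 and 3.89 TPM in IgG libraries and 4.28 and 3.99 TPM in untreated ones. Its E12.5 brain values were 18.5 and 17 TPM with anti-G3BP1 and 20.3 and 22.9 TPM with IgG, and its E16.5 brain values were 40.8 and 36.8 TPM with anti-G3BP1 and 44.3 and 41.0 TPM with IgG. In the embryo the IgG libraries overlapped both other groups and the anti-G3BP1 libraries lay below the untreated ones, while in both brains the anti-G3BP1 libraries lay below the IgG libraries. Fresh-frozen-labelled libraries gave Ank2 148 and 157 TPM with anti-G3BP1, 175 and 199 TPM with IgG and 147 and 102 TPM untreated, the second untreated library being the lowest of the table. Ank3 had 5.68 and 7.68 TPM with anti-G3BP1 in the fixed embryo, 8.73 and 7.64 TPM with IgG and 8.18 and 9.12 TPM untreated. It stood at 30.9 and 31.1 TPM with anti-G3BP1 and 27.0 and 31.1 TPM with IgG in E12.5 brain, and at 40.5 and 38.3 against 42.5 and 41.1 TPM in E16.5 brain. The ratio of Ank2 to Ank3, both scaled to length, was 0.519 ± 0.0522 in fixed embryo, 0.658 ± 0.102 in E12.5 brain, 1.0 ± 0.0333 in E16.5 brain and 1.01 ± 0.0957 in the fresh-frozen-labelled libraries (SD, n = 6, 4, 4 and 6). By TPM, Ank2 thus stood below Ank3 in the fixed embryo and E12.5 brain and level with it in the other tables.

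The alpha spectrin gene Sptan1 had 232 and 228 TPM with anti-G3BP1 and 251 and 246 TPM with IgG in E16.5 brain, and 133 and 148 against 147 and 144 TPM in E12.5 brain. Its mean in the fresh-frozen-labelled libraries was 2.43 times that of the fixed embryo, the smallest such ratio of the 7 genes, and 0.832 times that of E16.5 brain. Between the brain stages its ratio of means, E16.5 over E12.5, was 1.67, with smaller ratios for Ank3 (1.35) and Nrcam (1.28). Sptbn1 had 76.8 and 73.2 TPM with anti-G3BP1 and 80.0 and 77.9 TPM with IgG in E16.5 brain, and 25.5 and 23.9 against 29.4 and 34.3 TPM in E12.5 brain. Beta-II spectrin mRNA at E12.5 was near its level in the fixed embryo, with a ratio of means of 1.09, whereas the ratio of E16.5 to E12.5 brain was 2.72. The ratio of Sptan1 to Sptbn1 was 3.17 ± 0.297 in fixed embryo, 5.16 ± 0.824 in E12.5 brain, 3.11 ± 0.0644 in E16.5 brain and 1.13 ± 0.139 in the fresh-frozen-labelled libraries. Set against all beta spectrin genes summed, Sptan1 came to 1.30, 0.822, 0.760 and 0.557 times their level in the same order. Sptbn1 supplied 41.2 ± 4.01% of the summed beta spectrin level in fixed embryo, 16.2 ± 2.32% in E12.5 brain, 24.5 ± 1.21% in E16.5 brain and 49.8 ± 6.32% in the fresh-frozen-labelled libraries.

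L1cam spanned the widest range of the L1 family genes. Its levels were 200.3 and 207 TPM with anti-G3BP1 and 244 and 237 TPM with IgG in E16.5 brain, and 68.9 and 63.3 against 74.3 and 79.1 TPM in E12.5 brain. In the fixed embryo they were 7.40 and 9.92 TPM with anti-G3BP1, 13.9 and 6.83 TPM with IgG and 13.7 and 18.9 TPM untreated. The anti-G3BP1 libraries overlapped the IgG libraries and lay below the untreated ones. Nrcam had 54.1 and 52.6 TPM with anti-G3BP1 and 63.2 and 58.8 TPM with IgG in E16.5 brain, and 42.4 and 50.5 against 47.5 and 38.7 TPM in E12.5 brain. The ratio of L1cam to Nrcam was 1.52 ± 1.09 in fixed embryo, 1.62 ± 0.325 in E12.5 brain, 3.88 ± 0.138 in E16.5 brain and 3.74 ± 0.378 in the fresh-frozen-labelled libraries (SD, n = 6, 4, 4 and 6). Nfasc, the partner of ankyrin-G at the initial segment, had 64.2 and 70.6 TPM with anti-G3BP1 and 80.6 and 71.0 TPM with IgG in E16.5 brain. At E12.5 its anti-G3BP1 libraries, at 29.7 and 31.3 TPM, lay well below its IgG libraries, at 45.3 and 44.2 TPM.

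E16.5 and E12.5 brain could be compared in one fit of limma on log2(TPM + 1) with the antibody as a covariate. Of 20162 genes tested, 50% changed at an adjusted p under 0.05 and 32.3% were higher at E16.5, so a call is common in this comparison. All 7 genes were called higher, a count that the choice of genes used and from which nothing is read. L1cam changed by 1.62 ± 0.07 on the log2 scale (SE, n = 4 libraries each), Sptbn1 by 1.43 ± 0.10 and Ank2 by 1.02 ± 0.11. Nfasc changed by 0.93 ± 0.11, Sptan1 by 0.74 ± 0.07, Ank3 by 0.42 ± 0.10 and Nrcam by 0.35 ± 0.12. The median over the 7 genes was 0.93, beside 0.17 over all genes tested. The call of Nrcam was lost in 6 of 8 fits that each left out 1 library, with a change of 0.26 to 0.39.

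Other genes of the network were looked at in the same comparison. A list of 38 other genes of the ankyrin, spectrin and L1 network held 37 that were tested. Of these 29 rose at E16.5 and 3 fell, with a median log2 change of 1.03. Over all genes tested 32.3% were called higher and 50% were called in either direction, which is the background for the counts of this list and its groups. All 7 initial segment genes of the list rose, as did 7 of 8 genes of immunoglobulin adhesion partners, 8 of 11 genes of the spectrin-actin junction, 4 of 5 other ankyrin and spectrin genes and 3 of 6 genes of cytoplasmic partners and sheddases of L1. The largest rise among them was that of Sptbn4, beta-IV spectrin of initial segments and nodes, at 52.8 ± 7.1 TPM in E16.5 brain against 4.36 ± 1.45 TPM in E12.5 brain (SD, n = 4 each; log2 change 3.36 ± 0.18, limma adjusted p = 2.45e-06). Cntnap1, the contactin-associated protein of the junctions beside nodes, stood at 22.5 ± 2.67 against 1.81 ± 1.26 TPM (3.23 ± 0.38, limma adjusted p = 0.000152). Cntn1, contactin, a partner of neurofascin and Nrcam, stood at 39.8 ± 2.64 against 4.14 ± 1.94 TPM (3.07 ± 0.21, limma adjusted p = 6.72e-06). Chl1, the close homologue of L1, stood at 126 ± 9.03 against 20.6 ± 6.03 TPM (2.59 ± 0.15, limma adjusted p = 3.07e-06). No library of E16.5 brain overlapped one of E12.5 brain for these 4 genes. Libraries of both stages did overlap for Scn8a and Ezr, which are among those counted as rising. The list was chosen with earlier results of these data known, so its counts and p-values, here and below, are a description.

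Initial segment genes rose together in that list, among them Scn2a, a sodium channel that ankyrin-G anchors, at 32.6 TPM in E16.5 brain against 4.65 TPM in E12.5 brain, and Trim46, which bundles microtubules there, at 158 against 37 TPM. The 3 genes that fell were Epb41, protein 4.1R of the spectrin-actin junction best known from red cells, and Msn and Rdx, moesin and radixin, which link membrane proteins to actin. Epb41 stood at 36.8 ± 1.27 TPM in E16.5 brain against 79.8 ± 6.59 TPM in E12.5 brain (log2 change -1.09 ± 0.09, limma adjusted p = 1.65e-05). Msn changed by -0.77 (24.7 against 42.5 TPM, limma adjusted p = 0.000812) and Rdx by -0.51 (80.9 against 116 TPM, limma adjusted p = 0.00236). Sptbn5, Epb41l2, Tmod1, Cntn2 and Adam10 did not pass the test.

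Cell-type markers moved with the stage as well. Summed neuronal markers lay at 4584 to 4656 TPM in E16.5 brain against 2683 to 3224 TPM in E12.5 brain, with 5 of 5 markers at 1 TPM or more in both. Summed progenitor markers lay at 550 to 688 against 1980 to 2180 TPM (4 of 4 in both), astroglial markers at 151 to 188 against 23.2 to 65.9 TPM (4 of 4 against 2 of 4) and oligodendrocyte lineage markers at 170 to 199 against 73.3 to 88.8 TPM (5 of 5 against 4 of 5). Endothelial markers lay at 259 to 292 against 64.5 to 82.2 TPM (3 of 3 in both) and erythroid markers at 728 to 798 against 5327 to 6932 TPM (4 of 5 against 5 of 5). No marker of these 6 lists was listed at 0 throughout a table, and their part in the stage changes was not tested.

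**Figure D2:**
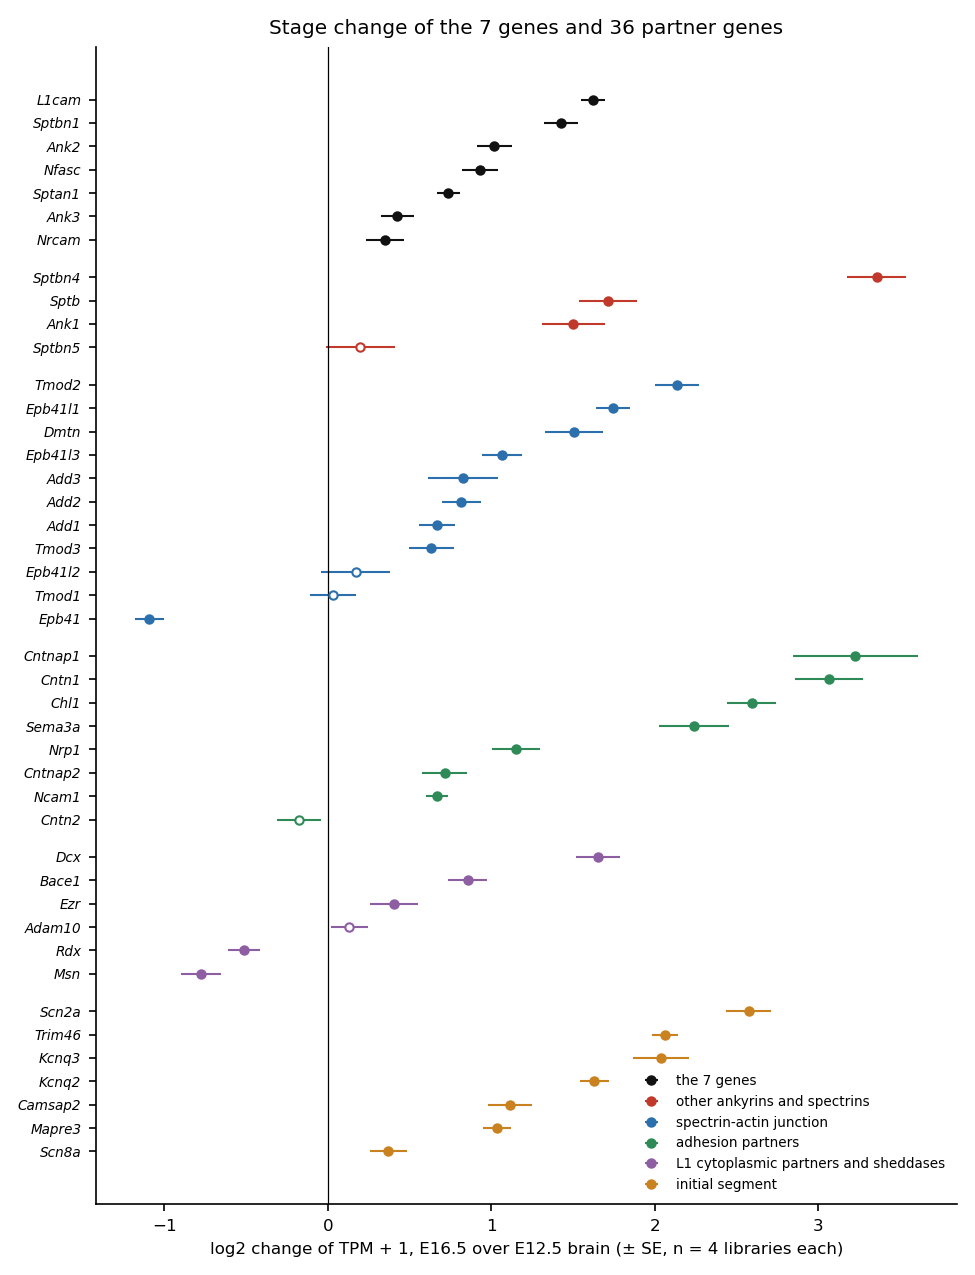
Log2 change of TPM + 1 in E16.5 brain over E12.5 brain (horizontal axis; bars show the SE, n = 4 libraries each) for the 7 genes and 36 of the 37 tested genes of their network, grouped by role; filled points passed the test. Sptbn4, Cntnap1 and Cntn1 lie farthest to the right, at 3.36, 3.23 and 3.07, and Epb41, Msn and Rdx are the filled points left of 0.

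Across the 20 libraries the 7 genes tracked each other, since all of them differ between the same tables. Pearson r of log2(TPM + 1) over the 21 pairs ran between 0.775 for Sptan1 with Sptbn1 and 0.994 for Ank2 with Ank3. Without the fresh-frozen-labelled libraries it ran between 0.656 for Sptbn1 with Nrcam and 0.988 for Ank2 with Nfasc, over 14 libraries. The libraries fall into 4 separate tables, so these values describe differences between tables. Of 14671 genes with enough signal, those with a pattern most like the mean of the 7 genes were Nrxn3, a neurexin of synapses (r = 0.998), Xpr1, a phosphate exporter (0.997), Gnao1, a G protein subunit of neurons (0.997), Csmd2 (0.996) and Kcna2, a potassium channel of axons (0.996). Without the fresh-frozen-labelled libraries these were 0.999, 0.997, 0.997, 0.995 and 0.996. Nrxn3 averaged 0.534 TPM in fixed embryo, 11 TPM in E12.5 brain, 43.1 TPM in E16.5 brain and 190 TPM in the fresh-frozen-labelled libraries. By that likeness Nfasc ranked 13, Ank2 33, L1cam 41, Ank3 223, Nrcam 329, Sptbn1 1795 and Sptan1 2207. The order depended on the fresh-frozen-labelled libraries, without which the ranks were 16 for Ank2, 83 for Sptan1, 146 for Nfasc, 147 for L1cam, 776 for Ank3, 1607 for Nrcam and 4010 for Sptbn1.

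Levels of the 7 genes were also set between anti-G3BP1 and IgG libraries, since editing is compared there. None of the 7 was called in any table, beside 0.0% of 19144 genes in fixed embryo, 0.034% of 23545 in the fresh-frozen-labelled libraries (0.0297% higher), 0.0% of 18010 in E12.5 brain and 0.0108% of 18564 in E16.5 brain. At an unadjusted p under 0.05, limma counted 1153, 2773, 2452 and 1841 genes in the same tables. The median log2 change of the 7 genes was -0.18 in fixed embryo, -0.20 in the fresh-frozen-labelled libraries, -0.21 in E12.5 brain and -0.13 at E16.5, beside -0.12, -0.00, -0.15 and -0.02 over all genes. In E16.5 brain all 7 had both anti-G3BP1 libraries below both IgG libraries, where 23.6% of all genes did. This held for Ank2, L1cam, Nfasc and Sptbn1 in E12.5 brain (33.7% of all genes), for Ank2, Ank3, Nrcam, Sptan1 and Sptbn1 in the fresh-frozen-labelled libraries (21.2%) and for Sptbn1 in the fixed embryo (36.1%). The largest of these differences were -0.54 ± 0.18 for Nfasc in E12.5 brain and -0.35 for Sptbn1 there (log2, SE, n = 2 each).

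Editing was read as the share of reads with the edited base over the kept sites of a gene, those covered by at least 10 reads in each library of a table. Intervals are 95% Wilson intervals of that share and cover counting error at most, since reads carry no molecular identifiers. Reads were summed over sites, so a read that covers several sites was counted at each of them. The intervals may therefore be too narrow even for counting error. Of the 7 genes, 34 of 69 listed sites were kept in fixed embryo, 440 of 546 in the fresh-frozen-labelled libraries, 358 of 653 in E12.5 brain and 787 of 857 in E16.5 brain. Over all genes the share was 1.22% and 1.25% with anti-G3BP1, 0.636% and 0.661% with IgG and 0.380% and 0.356% untreated in the fresh-frozen-labelled libraries. It was 0.374% and 0.346% with anti-G3BP1 against 0.216% and 0.227% with IgG in E16.5 brain, 0.429% and 0.374% against 0.198% and 0.214% in E12.5 brain, and 0.478% and 0.491% against 0.363% and 0.402%, with 0.390% and 0.565% untreated, in the fixed embryo. Those shares are the background for every gene below. Summed over the 7 genes the shares were 1.02% and 1.1% with anti-G3BP1, 0.514% and 0.530% with IgG and 0.344% and 0.280% untreated in the fresh-frozen-labelled libraries. In E16.5 brain they were 0.246% and 0.229% against 0.128% and 0.110%, and in E12.5 brain 0.275% and 0.427% against 0.180% and 0.109%. In both brains and in the fresh-frozen-labelled libraries the anti-G3BP1 libraries lay above the IgG libraries. In the fixed embryo only Sptan1 and Sptbn1 had enough reads, neither lay above IgG without overlap, and Sptan1 lay below it.

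Changes of the edited share were fitted per gene with a quasi-binomial model and are given as log2 odds ratios, anti-G3BP1 over IgG. An adjusted p under 0.05 was reached by 2.41% of 7836 genes in the fresh-frozen-labelled libraries, all higher, and by 6.65% of 11741 in E16.5 brain. In the same direction it was reached by 0.0179% of 5594 genes in fixed embryo and by 0.0% of 5568 in E12.5 brain, where 171 genes had an unadjusted p under 0.05 and limma on the empirical logit called 1. Of the 7 genes, Ank2 and Ank3 were called in the fresh-frozen-labelled libraries and Ank2, Ank3 and Sptbn1 in E16.5 brain, and the counts are given as a description of genes already known. The median of the 7 genes was 0.98 in the fresh-frozen-labelled libraries, beside 0.91 over all genes, and 0.94 beside 0.65 in E16.5 brain. It was 2.04 beside 0.62 in E12.5 brain, where depth was lowest, and -1.17 beside 0.31 in the fixed embryo, where only Sptan1 and Sptbn1 had the reads to be fitted. All these calls were lost with limma on the empirical logit, at log2 values of 1.2 for Ank2 and 0.91 for Ank3 in the fresh-frozen-labelled libraries and 1.13 for Ank2, 0.95 for Ank3 and 1.65 for Sptbn1 at E16.5. They were also lost with C-to-T edits alone, where Ank2 at E16.5 had a log2 odds ratio of 0.29. The Ank3 call at E16.5 was lost with A-to-G alone too (1.05). Leaving out 1 library ended each of the calls of Ank2 and Ank3, and that of Sptbn1 held only without the second IgG library. Leaving out 1 library, the empirical logit and C-to-T edits alone ended all or most calls over all genes as well, as given below. The losses under these settings are therefore not particular to the named genes.

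**Figure D3:**
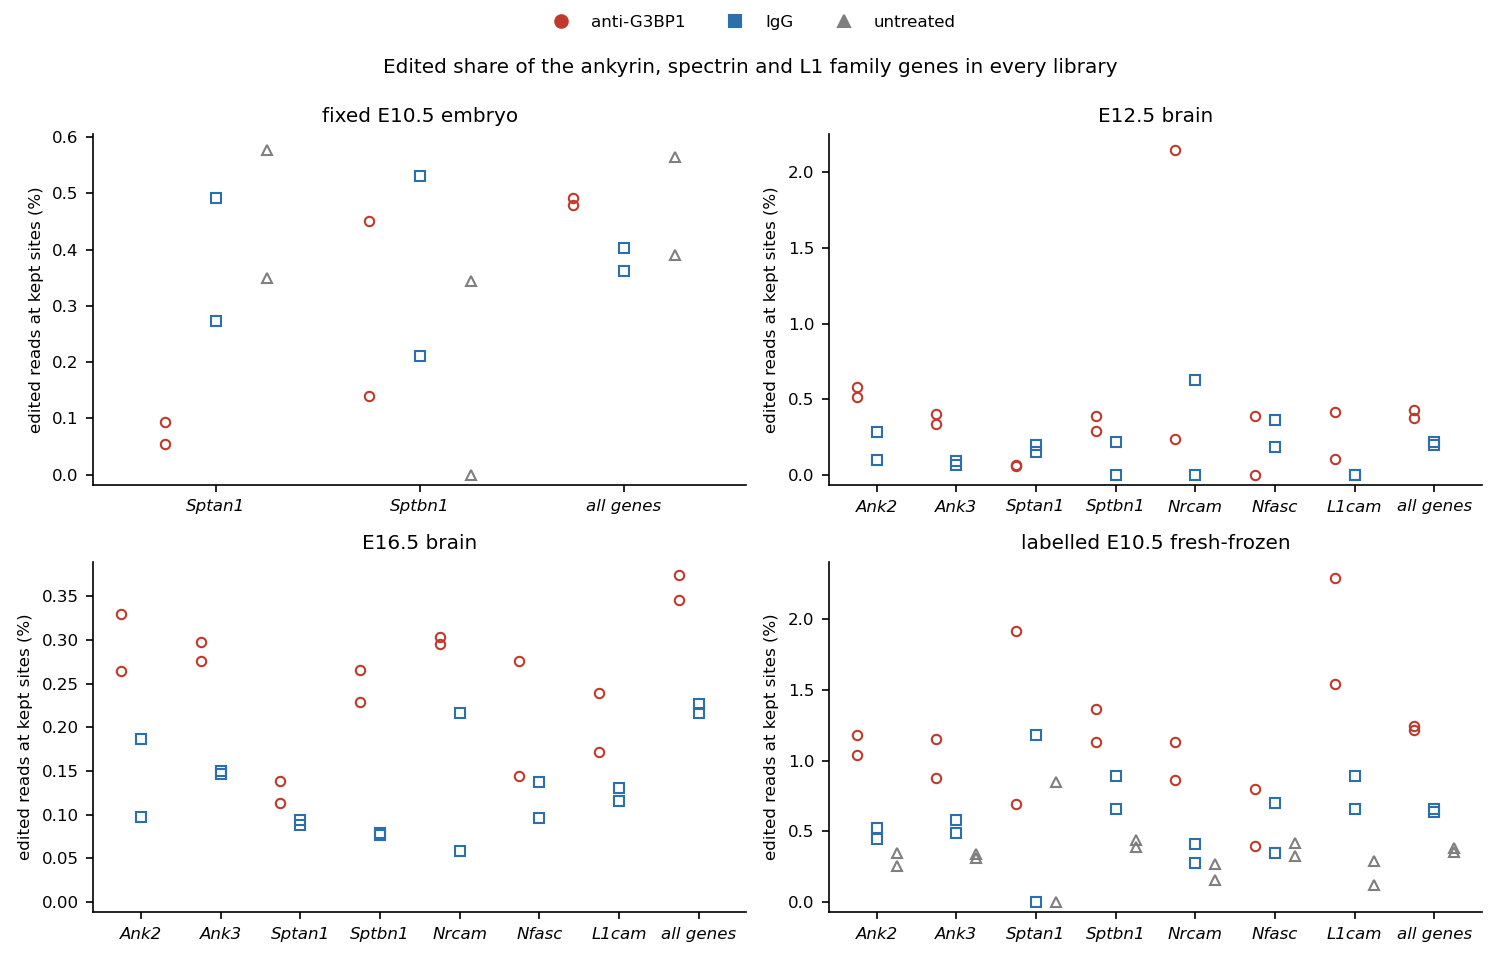
Edited share (% of reads at kept sites, both kinds of edit) of the genes fitted in each table and of all genes together, one panel per table and one point per library, with anti-G3BP1, IgG and untreated libraries in separate colours. In the fresh-frozen-labelled libraries Ank2 lies at 1.04% and 1.18% with anti-G3BP1 against 0.525% and 0.444% with IgG, while the points of Sptan1 overlap between groups.

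Ank2 carried more edited reads with anti-G3BP1 than with IgG in 3 tables. In the fresh-frozen-labelled libraries its share over 111 sites was 1.04% (106 of 10167 reads, interval 0.863 to 1.26%) and 1.18% (168 of 14254, 1.01 to 1.37%) with anti-G3BP1. With IgG it was 0.525% (52 of 9902, 0.401 to 0.688%) and 0.444% (50 of 11249, 0.337 to 0.585%), and untreated it was 0.346% and 0.252%. The intervals of the anti-G3BP1 libraries did not reach those of the IgG libraries, and the log2 odds ratio was 1.22 ± 0.25 (SE, n = 2 each), or 1.09 to 1.34 with 1 library left out. In E16.5 brain the share was 0.330% and 0.265% with anti-G3BP1 against 0.187% and 0.0972% with IgG, a log2 odds ratio of 0.95 ± 0.24, or 0.64 to 1.58 with 1 library left out. At E12.5 the Ank2 share was 0.580% (12 edited reads) and 0.514% (15) with anti-G3BP1 against 0.281% (3) and 0.0953% (3) with IgG, a log2 odds ratio of 1.84 ± 0.96. The fixed embryo kept 1 Ank2 site, too few reads for a fit.

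Within Ank2, the anti-G3BP1 and IgG libraries stood apart in the 3′ UTR and overlapped in the giant exon. In the fresh-frozen-labelled libraries the 60 kept sites of the 3′ UTR had an edited share of 1.58% (1.29 to 1.93%) and 1.76% (1.49 to 2.08%) with anti-G3BP1 against 0.357% (0.220 to 0.580%) and 0.549% (0.387 to 0.778%) with IgG, and 0.309% and 0.178% untreated. In the 40 kept sites of the giant exon the share was 0.293% (0.168 to 0.511%) and 0.451% (0.312 to 0.651%) with anti-G3BP1 against 0.618% (0.438 to 0.871%) and 0.317% (0.198 to 0.507%) with IgG, so the groups overlapped. The untreated libraries read 0.299% and 0.216% there. A test of the difference between the regions was not run. For Ank3, the same regions are given for comparison. Its 3′ UTR had 0.606% (0.438 to 0.837%) and 1.28% (1.07 to 1.53%) with anti-G3BP1 against 0.343% (0.232 to 0.506%) and 0.448% (0.317 to 0.631%) with IgG over 59 sites. Its giant exon had 1.0% (0.777 to 1.29%) and 0.897% (0.696 to 1.16%) against 0.715% (0.512 to 0.997%) and 0.522% (0.361 to 0.753%) over 72 sites. In both regions of Ank3 the anti-G3BP1 libraries lay above the IgG libraries.

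**Figure D4:**
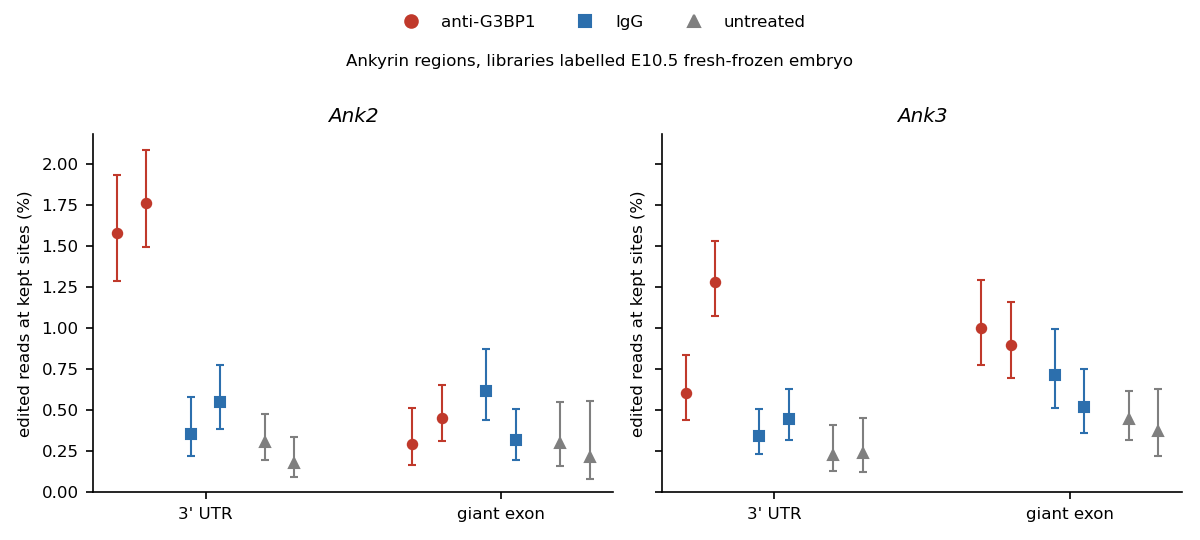
Edited share (%, with 95% Wilson intervals that cover counting error at most) in the 3′ UTR and in the giant exon of Ank2 and Ank3, in each fresh-frozen-labelled library, with anti-G3BP1, IgG and untreated libraries in separate colours. The Ank2 3′ UTR stands at 1.58% and 1.76% with anti-G3BP1 against 0.357% and 0.549% with IgG, while the groups overlap in the Ank2 giant exon.

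Giant-exon sites were listed mainly in the fresh-frozen-labelled libraries, 128 sites of which 112 were kept, 40 in Ank2 and 72 in Ank3. E16.5 brain listed 45 and kept 9, and neither E12.5 brain nor the fixed embryo listed any. Mean depth per listed site in the Ank2 giant exon was 39.6 to 130 reads per library in the fresh-frozen-labelled libraries, against 6.45 to 13.6 reads in E16.5 brain. In the 3′ UTR of Ank2 the order was the other way, with 74.6 to 130 against 223 to 396 reads. The Ank3 giant exon had 49.3 to 105 against 9.81 to 15.9 reads, and the Ank3 3′ UTR 55.4 to 139 against 220 to 381 reads. The deposited files list sites and not exons, so these depths describe the listed sites of each table.

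A single stretch of the Ank2 3′ UTR held the site with the most edited reads in both tables. At the first Ank2 A-to-G site shown above, 773 bases before the transcript end in exon 46 of 46 of Ank2-208, 18 of 102 and 36 of 198 reads were edited with anti-G3BP1 in the fresh-frozen-labelled libraries. With IgG 4 of 123 and 3 of 123 reads were edited, and untreated none of 81 and 68 reads. In E16.5 brain the same base was edited in 16 of 204 and 23 of 312 reads with anti-G3BP1 against 4 of 259 and 3 of 190 reads with IgG. The site lies 4 bases from the A-to-G site whose window is chr3:126922369-126922397, edited in 3 of 96 and 4 of 197 reads with anti-G3BP1 in the fresh-frozen-labelled libraries and in none with IgG or untreated. That neighbour was edited in 1 of 234 and 4 of 346 reads with anti-G3BP1 in E16.5 brain, against none of 288 and 214 reads with IgG. The C-to-T site in the same stretch had 3 of 246 and 3 of 348 reads with anti-G3BP1 against none of 309 and 235 reads with IgG at E16.5. Without the most edited site of each gene the Ank2 log2 odds ratio at E16.5 was 0.70 and no longer called. Closer to the end of the transcript, 120 bases before it, the site with window chr3:126921720-126921748 was edited in 4 of 31 and 4 of 39 reads with anti-G3BP1 in E12.5 brain, against none of 15 and 37 reads with IgG. In the fresh-frozen-labelled libraries that base had 4 of 81 and 6 of 105 edited reads with anti-G3BP1 against 0 of 79 and 3 of 89 with IgG. At E16.5 the counts were 1 of 225 and 4 of 349 against none of 424 and 356.

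**Figure D5:**
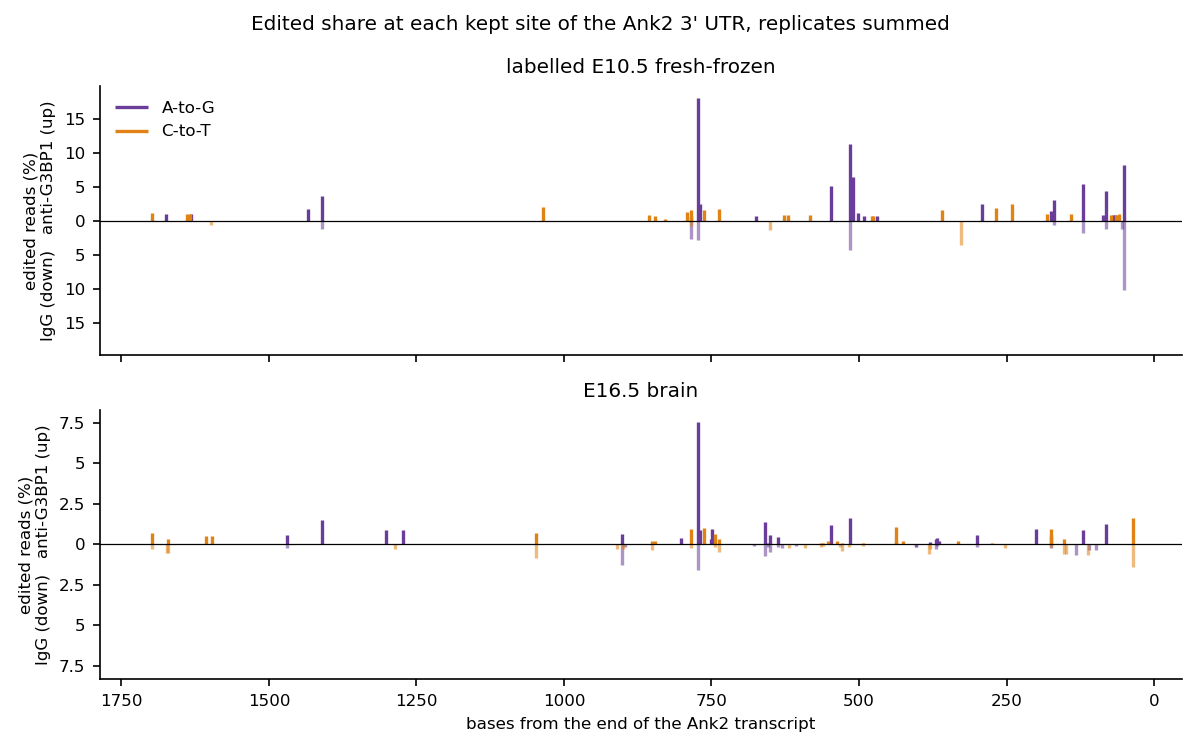
Edited share (%) at each kept site of the Ank2 3′ UTR by distance in bases from the transcript end, anti-G3BP1 drawn upward and IgG downward with replicates summed, for the fresh-frozen-labelled libraries and for E16.5 brain; A-to-G and C-to-T sites are in separate colours. The tallest anti-G3BP1 bar in both panels stands 773 bases from the end.

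Ank3 was called in the same tables. Its share over 166 sites in the fresh-frozen-labelled libraries was 0.876% (114 edited reads) and 1.15% (212) with anti-G3BP1, 0.492% (69) and 0.584% (83) with IgG and 0.339% and 0.311% untreated. The log2 odds ratio was 0.95 ± 0.21, or 0.69 to 1.1 with 1 library left out. In E16.5 brain it was 0.298% and 0.277% against 0.147% and 0.151%, a log2 odds ratio of 0.94 ± 0.22 that ran from 0.91 to 1.01 with 1 library left out. The groups overlapped in neither table. At E12.5 it was 0.335% (14) and 0.401% (20) with anti-G3BP1 against 0.0674% (1) and 0.0884% (4) with IgG, a log2 odds ratio of 2.04 ± 1.02. At the Ank3 site 407 bases before the transcript end (window chr10:70027017-70027045), 5 of 183 and 15 of 345 reads were edited with anti-G3BP1 in the fresh-frozen-labelled libraries, against 1 of 212 and 1 of 184 with IgG. The corresponding E16.5 reads were 4 of 425 and 2 of 644 against 3 of 698 and 1 of 535, so the groups were close there. The site with window chr10:70026873-70026901 had 2 of 155 and 7 of 229 edited reads with anti-G3BP1 and none with IgG or untreated in the fresh-frozen-labelled libraries. At E16.5 this base had 1 of 372 and 2 of 475 edited reads with anti-G3BP1 against 1 of 598 and 2 of 436 with IgG, so the groups overlapped.

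Of the spectrin genes, Sptbn1 was called at E16.5 and Sptan1 in no table. Sptbn1 in E16.5 brain had the largest log2 odds ratio of the 7 genes, 1.69 ± 0.30, or 1.56 to 1.74 with 1 library left out. Its share was 0.229% (51 edited reads, interval 0.174 to 0.301%) and 0.266% (97, 0.218 to 0.324%) with anti-G3BP1 against 0.0771% (32, 0.0546 to 0.109%) and 0.0787% (23, 0.0525 to 0.118%) with IgG. The replicates of each group lay close together and no interval of one group reached the other. A-to-G edits of Sptbn1 stood at 0.363% and 0.356% with anti-G3BP1 against 0.0695% and 0.0553% with IgG, and C-to-T edits at 0.150% and 0.211% against 0.0818% and 0.0926%. In the fresh-frozen-labelled libraries Sptbn1 was at 1.37% and 1.13% with anti-G3BP1, 0.895% and 0.657% with IgG and 0.442% and 0.393% untreated, a log2 odds ratio of 0.68 ± 0.40. At its most edited site, 521 bases before the transcript end in exon 36 of 36, 4 of 83 and 9 of 104 reads were edited with anti-G3BP1 there, against none of 69 and 3 of 89 with IgG. In E16.5 brain this base had 5 of 128 and 7 of 234 edited reads with anti-G3BP1 against none of 316 and 2 of 177 with IgG. The coding site of Sptbn1 shown above had 3 of 188 and 5 of 256 edited reads with anti-G3BP1 at E16.5, against none of 259 and 208 with IgG. E12.5 brain gave Sptbn1 3 and 4 edited reads with anti-G3BP1 against 1 and 0 with IgG, where 0 of 1385 reads allows a share of up to 0.217%.

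Sptan1, the gene with the highest mean level in 3 of 4 tables, had edited shares that lay on different sides of IgG. In E16.5 brain its share was 0.138% and 0.113% with anti-G3BP1 against 0.0885% and 0.0938% with IgG, a log2 odds ratio of 0.43 ± 0.32. At E12.5 the anti-G3BP1 libraries lay below the IgG libraries, at 0.0649% (2 edited reads) and 0.0542% (2) against 0.149% (2) and 0.194% (7), a log2 odds ratio of -1.53 ± 1.16 that turned to 1.09 with a site minimum of 20 reads. The fixed embryo gave 0.0941% (2) and 0.0546% (1) with anti-G3BP1, 0.273% (10) and 0.492% (12) with IgG and 0.349% (8) and 0.576% (4) untreated, a log2 odds ratio of -2.06 ± 1.23. Below IgG with no overlap lay 3.41% of all genes in E12.5 brain and 12.2% in the fixed embryo. The E12.5 value rests in part on the C-to-T site shown above, where none of 49 and 55 reads were edited with anti-G3BP1 against 2 of 11 and 2 of 63 with IgG. Its 9 kept sites in the fresh-frozen-labelled libraries held few reads, and 7 and 4 edited reads were counted with anti-G3BP1 against 0 and 5 with IgG, so the groups overlapped. Sptan1 also has the shortest 3′ UTR of the 7 genes, in which 29 sites were listed in E16.5 brain, 17 in E12.5 brain, 2 in fixed embryo and none in the fresh-frozen-labelled libraries.

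The 3 adhesion genes of the L1 family were not called in any table at the settings used here. Other settings did call some of them, Nrcam in the fresh-frozen-labelled libraries with a site minimum of 5 reads or with only the 2 groups compared, Nrcam in E16.5 brain with A-to-G alone (log2 odds ratio 1.78) and L1cam in E16.5 brain with a site minimum of 5 or 20 reads (0.84 and 0.87). L1cam had 1.54% (16 edited reads) and 2.29% (34) with anti-G3BP1, 0.660% (6) and 0.892% (9) with IgG and 0.120% (2) and 0.295% (4) untreated over 11 sites in the fresh-frozen-labelled libraries, a log2 odds ratio of 1.33 ± 0.59. In E16.5 brain it was at 0.172% and 0.240% against 0.115% and 0.131%, a log2 odds ratio of 0.81 ± 0.28. At E12.5 no edited read was found in its IgG libraries, where 0 of 751 and 0 of 2327 reads allow shares of up to 0.399% and 0.129%, against 0.104% (2) and 0.415% (8) with anti-G3BP1. The most edited L1cam site lies 875 bases before the transcript end, in exon 29 of 29 of L1cam-202. There 11 of 278 and 19 of 316 reads were edited with anti-G3BP1 in the fresh-frozen-labelled libraries, 5 of 166 and 7 of 251 with IgG and none of 308 and 306 untreated. In E16.5 brain the site had 8 of 309 and 11 of 499 edited reads with anti-G3BP1 against 2 of 575 and 8 of 424 with IgG. That base was edited with anti-G3BP1 and with IgG, and in no untreated library.

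Nrcam reached 1.13% (52 edited reads) and 0.860% (59) with anti-G3BP1 against 0.276% (11) and 0.414% (17) with IgG in the fresh-frozen-labelled libraries, with 0.273% and 0.157% untreated. The log2 odds ratio was 1.47 ± 0.44, the largest of the 7 genes in that table. In E16.5 brain the share was 0.296% and 0.304% against 0.217% and 0.0586%, so the second IgG library stood well below the first, and the log2 odds ratio was 0.99 ± 0.38. The E12.5 value of Nrcam came from 1 library at 1 base: 22 of 174 reads in the second anti-G3BP1 library carried the coding edit in exon 26 of 31 of Nrcam-201, against none of 107 reads in the first and none of 30 and 56 reads with IgG. With that base the log2 odds ratio was 2.56 ± 1.24, or 0.24 to 5.94 with 1 library left out, and without it -0.60. At the most edited 3′ UTR site, 1218 bases before the transcript end, 4 of 136 and 6 of 170 reads were edited with anti-G3BP1 in the fresh-frozen-labelled libraries, against 3 of 107 and 4 of 128 with IgG and none of 166 and 126 untreated.

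Nfasc had the smallest log2 odds ratio of the 3 adhesion genes in each table where they were fitted. Its share was 0.803% (21 edited reads) and 0.394% (13) with anti-G3BP1, 0.701% (11) and 0.346% (6) with IgG and 0.330% and 0.417% untreated in the fresh-frozen-labelled libraries, where all groups overlapped and the log2 odds ratio was 0.14 ± 0.60. In E16.5 brain it was 0.276% and 0.144% against 0.0961% and 0.138%, a log2 odds ratio of 0.76 ± 0.39. A-to-G edits of Nfasc stood further apart there, at 0.376% and 0.348% with anti-G3BP1 against 0.0390% and 0.0587% with IgG, while C-to-T edits overlapped, at 0.248% and 0.0809% against 0.113% and 0.160%. The C-to-T site 70 bases before its transcript end had 2 of 129 and 2 of 233 edited reads with anti-G3BP1 in the fresh-frozen-labelled libraries, against none of 132 and 102 with IgG. At E12.5 the Nfasc counts were 4 and 0 edited reads against 1 and 5, a log2 odds ratio of -0.64 ± 1.22.

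Counted over tables, both anti-G3BP1 libraries lay above both IgG libraries for all 7 genes in E16.5 brain (42.1% of all genes), for Ank2, Ank3, L1cam, Nrcam and Sptbn1 in the fresh-frozen-labelled libraries (47.1%), for Ank2, Ank3, L1cam and Sptbn1 in E12.5 brain (27.6%) and for neither gene fitted in the fixed embryo (21.6%). None of the 7 lay below IgG without overlap in E16.5 brain (5.4%) or in the fresh-frozen-labelled libraries (4.48%). The antibody effect was also set between the brain stages over sites kept in both. The difference of log2 odds ratios, E16.5 minus E12.5, had a median of -1.45 over the 7 genes and 0.22 over all 2804 genes, of which 0.0% were called and 70 had an unadjusted p under 0.05. For the called genes of E16.5 brain the differences were -0.09 ± 1.67 for Sptbn1, -1.65 ± 1.27 for Ank2 and -1.45 ± 1.26 for Ank3 (SE).

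Shares with IgG stood above untreated ones for several of the genes. IgG over untreated in the fresh-frozen-labelled libraries gave log2 odds ratios of 1.92 ± 0.95 for L1cam, 0.88 ± 0.45 for Sptbn1, 0.71 ± 0.30 for Ank3, 0.65 ± 0.35 for Ank2, 0.64 ± 0.55 for Nrcam, 0.50 ± 0.69 for Nfasc and 0.19 ± 1.12 for Sptan1. None was called, beside 0.242% of 7836 genes, and the median of 0.65 stands beside 0.72 over all genes. IgG libraries lay above untreated ones with no overlap for Ank2, Ank3, L1cam, Nrcam and Sptbn1, as they did for 31.5% of all genes. These IgG libraries are the same as in the anti-G3BP1 comparison. In the fixed embryo Sptan1 stood at -0.19 ± 0.76 and Sptbn1 at 0.25 ± 0.87, and 0.0% of 5594 genes were called (138 at an unadjusted p under 0.05).

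Single sites were also counted by the libraries that edited them. Of the 440 kept sites of the 7 genes in the fresh-frozen-labelled libraries, 55 were edited in both anti-G3BP1 libraries and 16 in both IgG libraries, beside 11219 and 3112 of the 107322 kept sites of all genes. Edited in that pair of libraries and no other were 26 (5.91%) against 1 (0.227%), beside 5.62% and 0.668% over all genes. In E16.5 brain the counts in both libraries were 64 (8.13%) and 47 (5.97%) of 787 sites, beside 7.08% and 4.11%, and those in that pair alone were 26 against 15, or 3.30% and 1.91% beside 3.02% and 1.22%. E12.5 brain had 5 (1.40%) and 1 (0.279%) of 358 sites edited in both libraries, beside 1.92% and 0.460%, and the fixed embryo 1 (2.94%) and 3 (8.82%) of 34, beside 2.34% and 3.42%. Over all genes, as over the 7, more sites were edited in both anti-G3BP1 libraries than in both IgG libraries in 3 of the 4 tables. In the fixed embryo fewer were. These counts depend on read depth and were not adjusted for it. At the most edited Sptbn1 site of the fixed embryo, anti-G3BP1 libraries had 280 and 193 reads against 475 and 294 with IgG. At the Nrcam coding site of E12.5 brain they had 107 and 174 against 30 and 56. In the fixed embryo the edited share over all genes, given above, ran opposite to the count. The direction of the counts is therefore not read as a difference in editing. Within E16.5 brain the genes differed, with 17 against 9 sites in Ank2 and 11 against 4 in Sptbn1, but 14 against 13 in Ank3 and 6 against 9 in Sptan1. Of 56 sites kept both in E16.5 brain and in the fresh-frozen-labelled libraries, 51 in 3′ UTRs, 15 were edited in all 4 anti-G3BP1 libraries and 3 in all 4 IgG libraries. The same count is not given over all genes, so nothing particular to the 7 genes is read from it. The 15 comprised 6 in Ank2, 3 in Ank3 and 2 each in Sptbn1, Nrcam and L1cam, and none in Sptan1 or Nfasc. One of those in L1cam is a C-to-T base at chrX:73853841, edited in 2 of 113 and 2 of 277 reads with anti-G3BP1 in the fresh-frozen-labelled libraries and in 1 of 103 and 3 of 134 at E16.5, and in no IgG or untreated library.

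Both kinds of edit contributed, A-to-G more than C-to-T. The A-to-G share of the 7 genes in the fresh-frozen-labelled libraries was 1.46% and 1.56% with anti-G3BP1 against 0.647% and 0.705% with IgG, and the C-to-T share 0.645% and 0.698% against 0.398% and 0.378%. For Ank2 alone A-to-G stood at 1.81% and 1.97% against 0.735% and 0.790%, with 0.401% and 0.281% untreated, and C-to-T at 0.515% and 0.685% against 0.394% and 0.230%. Shares also differed with the base before the edited one. A-to-G editing after T was 2.38% with anti-G3BP1 against 1.02% with IgG, and after G it was 0.749% against 0.546%. After A it was 1.36% against 0.501%, and after C 1.32% against 0.703%. The 226 edited reads after T with anti-G3BP1 included 18 and 36 at the most edited Ank2 site and 11 and 19 at that of L1cam. C-to-T editing after A was 0.839% against 0.339%, and after G it was 0.453% against 0.463%. After C it was 0.645% against 0.527%, and after T 0.585% against 0.314%. E16.5 brain gave 0.576% against 0.180% for A-to-G after T, 0.193% against 0.130% after G, 0.251% against 0.128% for C-to-T after A and 0.124% against 0.130% after G. A-to-G there was 0.316% against 0.120% after A and 0.231% against 0.0880% after C. C-to-T there was 0.0837% against 0.0983% after C and 0.180% against 0.0965% after T. E12.5 brain went the other way for A-to-G with anti-G3BP1, at 0.317% after T and 0.347% after G, from 8 edited reads each. With IgG it had 0.0509% after T and 0.384% after G. A-to-G in E12.5 brain was highest after A, at 1.16% with anti-G3BP1 against 0.0990% with IgG, and stood at 0.106% against 0.122% after C. Of the 49 edited reads after A with anti-G3BP1, 22 came from the Nrcam coding site shown above. C-to-T there stood at 0.297% after A, 0.309% after C, 0.107% after T and 0.0734% after G with anti-G3BP1. In the fixed embryo C-to-T lay below IgG after A (0.277% against 0.426%) and after G (0.241% against 0.331%). ADAR2 is known to disfavour a preceding G and APOBEC1 to favour a preceding A. No test was run on these shares.

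The share of kept sites that lay in 3′ UTRs was 48.0% for the 7 genes against 72.0% for all genes in the fresh-frozen-labelled libraries, where giant-exon sites were listed, and 79.9% against 67.4% in E12.5 brain. In E16.5 brain it was 69.5% against 70.8% and in the fixed embryo 50% against 65.1%. These shares were not tested.

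Other genes of the network were edited more with anti-G3BP1 as well. In E16.5 brain 11 of 37 tested list genes gained edited reads and none lost them, with a median log2 odds ratio of 0.94. Over all genes 6.65% were called there, all of them higher, and the median was 0.65. The 11 were 6 of 8 genes of adhesion partners, 2 of 7 initial segment genes and 1 each of the other 3 groups. The list was chosen with earlier results of these data known, so its counts and p-values are a description. Sema3a, the secreted guidance cue whose receptor complex includes L1, was at 1.04 ± 0.134% with anti-G3BP1 against 0.231 ± 0.0619% with IgG (SD, n = 2 each; log2 odds ratio 2.11 ± 0.61, quasi-binomial model moderated with limma, adjusted p = 0.0164). Cntn1 was at 0.467 ± 0.258% against 0.170 ± 0.0183% (1.63 ± 0.38, adjusted p = 0.00205 with limma moderation), and its log2 odds ratio was 0.77 and not called without the second anti-G3BP1 library. Cntnap2, a neurexin-type partner of contactins, was at 0.457 ± 0.0859% against 0.157 ± 0.0428% (1.61 ± 0.38, adjusted p = 0.00185 with limma moderation). Others among them were Cntn2, Scn2a, Camsap2, Rdx, Add2, Ncam1 and Chl1. The Sema3a call was lost with A-to-G alone, with C-to-T alone and without its most edited site. That of Cntn1 was lost with either kind of edit alone and that of Cntnap2 with C-to-T alone.

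In the fresh-frozen-labelled libraries 4 of 30 tested list genes gained edited reads, again with none lower and a median of 0.90, beside 2.41% of all genes called, all higher, and a median of 0.91. Scn2a was at 2.13 ± 0.20% with anti-G3BP1 against 0.366 ± 0.00583% with IgG (SD, n = 2 each; log2 odds ratio 2.55 ± 0.49, adjusted p = 0.000835 with limma moderation). Epb41l1, protein 4.1N, was at 2.05 ± 0.0530% against 0.742 ± 0.121% (1.48 ± 0.37, adjusted p = 0.0142 with limma moderation). Add1, an adducin that caps actin at the spectrin junction, was at 2.12 ± 0.0494% against 0.481 ± 0.511% (2.06 ± 0.53, adjusted p = 0.0202 with limma moderation), and Cntnap2 at 1.54 ± 0.0746% against 0.361 ± 0.0798% (2.06 ± 0.59, adjusted p = 0.0405 with limma moderation). Cntnap2 and Scn2a were called in both tables, and these list genes too were chosen with earlier results of these data known. None of 14 list genes was called in fixed embryo and none of 21 in E12.5 brain, beside the 1 and 0 genes called there in all. Leaving out 1 library ended all 4 calls in the fresh-frozen-labelled libraries, where the log2 odds ratio of Add1 then ran from 1.34 to 4.01, and in E16.5 brain it ended all 11 but for Cntn1 and Cntnap2 without the second IgG library. Limma on the empirical logit called none of them. Both settings ended all or most calls over all genes too, as given below, so these losses are not particular to the list genes. In the fresh-frozen-labelled libraries the calls of Add1, Cntnap2 and Epb41l1 also ended without the most edited site of each gene and with a replicate block, where their limma adjusted p-values were 0.102, 0.103 and 0.0595.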

How the data were processed

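The 20 libraries formed 10 groups of 2 by their labels. Each of the 4 deposited editing tables gives, for a site in a library, a count of covering reads and a count of edited reads. Levels are the TPM that the authors deposited in 4 further tables, a unit that keeps no read depth. The submitters' processing notes name featureCounts 2.0.1 of Subread, HISAT2 2.2.1 and BWA 0.7.17, then GATK 4.5.0.0 and Picard 3.1.1, with mm10 and GRCm38, and the site-calling rule is not given in the sources used here. In 3 of the 4 tables a value of 1 edited read was rarer than a value of 2 (in E16.5 brain 94668 against 154477), so shares near 1 edited read are uncertain. After 36, 104, 104 and 215 repeated lines were removed, the tables of the fixed embryo, the fresh-frozen-labelled libraries, E12.5 brain and E16.5 brain held 94699, 153406, 271383 and 384044 site-gene lines, and mean depth per kept site and library was 33.9 to 206, 56.0 to 93.9, 23.2 to 68.9 and 110 to 192 reads.

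Sites were kept where each library had at least 10 reads, and reads were added up over the sites of a gene. Where every library had at least 50 of them, the gene was fitted with a quasi-binomial model, with 0.25 reads added and dispersion moderated by limma 3.58.1 in R 4.3.3. TPM was fitted with limma on log2(TPM + 1) where 2 libraries had at least 1 TPM, rescaled over shared genes between the brain tables. All tests are two-sided, with Benjamini-Hochberg adjustment over all genes fitted, and a gene is called at an adjusted p under 0.05. Both fits were tested on simulated data. Regions and sequences came from GENCODE vM21, with version suffixes of gene IDs removed, and descriptions and figures were made with pandas 2.3.3, scipy 1.17.1 and matplotlib 3.10.9.

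The 7 genes, the 38 list genes and the tests were chosen with earlier results of these data known. Named are all 7 genes, up to 4 called list genes per comparison with the largest change and no overlap, the 5 genes most alike in pattern (10 TPM or more in 4 libraries) and, per table, up to 2 sites of each kind of edit with most edited reads among those edited in both anti-G3BP1 libraries alone, of which 6 of 12 are shown; that choice, the other sites and list genes were picked after their values were seen. Alternatives were site minimums of 5 and 20 reads, A-to-G or C-to-T alone, sites under 50% edited, only the groups compared, limma on the empirical logit with 0.5 reads added, a replicate block, a pseudocount of 0.1, no filter on low TPM, rescaling without mitochondrial and globin genes and leaving out each library. Leaving out the most edited site of each gene, and likeness without the fresh-frozen-labelled libraries, were added after the data were seen. Some genes of the list are counted but not reported here by name.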

Additional observations from a re-analysis of the deposited data

Results flagged for a closer look

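Sptan1 and Nfasc lay on opposite sides of IgG in different tables. The edited share of Sptan1 lay above IgG in both anti-G3BP1 libraries of E16.5 brain, with a log2 odds ratio of 0.43, but below IgG in both libraries of E12.5 brain, at -1.53, and of the fixed E10.5 embryo, at -2.06. In E12.5 brain both edited reads of the first IgG library came from the C-to-T coding site at which 2 of 11 reads were edited there, and without the gene's most edited site the value was -0.74, and with a site minimum of 20 reads it was 1.09. Between the brain stages the difference over shared sites was 2.80 ± 2.59 (SE), and none of the 2804 genes in that fit was called. The difference between the fixed embryo and E16.5 brain was not tested.

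The TPM of Nfasc changed sign between tables in the same way. The log2 change of anti-G3BP1 over IgG was 0.27 in the fresh-frozen-labelled libraries, where anti-G3BP1 libraries at 169 and 163 TPM lay above IgG libraries at 124 and 154 TPM. It was -0.54 in E12.5 brain and -0.17 at E16.5, where both anti-G3BP1 libraries lay below both IgG libraries. These differences between tables were not tested. With 2 libraries a group, no library could be judged against its own group.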

How the results depend on the processing

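Medians below are log2 changes over those of the 7 genes that were fitted, and no called value changed sign. For anti-G3BP1 over IgG in the fresh-frozen-labelled libraries (0.98 as reported) the median was 0.88 with 5 reads per site, 1.11 with 20 reads, 1.15 with A-to-G alone, 0.65 with C-to-T alone and 1.2 with limma on the empirical logit. IgG over untreated there (0.65) gave 0.87 with 20 reads, 0.84 with A-to-G, 0.22 with C-to-T and 0.55 without the most edited sites. In E12.5 brain (2.04) it was 0.85 with 20 reads (6 genes) and 1.35 without the most edited sites. In E16.5 brain (0.94) it was 1.39 with A-to-G, 0.67 with C-to-T and 0.73 without the most edited sites. The difference between the stages (-1.45) was -0.59 with 5 reads, -0.32 with 20 reads, -0.48 with C-to-T, -0.21 without the most edited sites and -0.026 with limma on the empirical logit. The fixed embryo (-1.17) gave 0.38 with only the anti-G3BP1 and IgG groups in the fit, which let in 4 of the genes. The causes were not tested.

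Leaving out 1 library gave medians of -1.72 to -0.64 for the fixed embryo, 0.91 to 1.1 for the fresh-frozen-labelled libraries, 0.86 to 1.90 for E12.5 brain, 0.90 to 1.01 for E16.5 brain and -1.58 to -0.23 for the stage difference. IgG over untreated ran from -0.50 to 1.17 in the fixed embryo and from 0.65 to 0.97 in the fresh-frozen-labelled libraries. Expression by stage ran from 0.87 to 1.0, and expression of anti-G3BP1 over IgG from -0.33 to 0.07, -0.19 to -0.11, -0.27 to -0.15 and -0.19 to -0.08 in the fixed embryo, the fresh-frozen-labelled libraries, E12.5 and E16.5 brain. The 189 genes called in the fresh-frozen-labelled libraries became 0 whichever library was left out, with limma on the empirical logit or with C-to-T alone, 82 with A-to-G, 335 with 5 reads, 119 with 20 reads and 62 without the most edited sites. The 781 of E16.5 brain became 0, 0, 10 and 168 without 1 library, 0 with limma, 18 with C-to-T, 497 with A-to-G and 408 without the most edited sites. The 19 called for IgG over untreated in the fresh-frozen-labelled libraries became 0 to 42 over all settings. Over all settings, 0 to 38 genes were called for editing in E12.5 brain, and for expression of anti-G3BP1 over IgG 0 to 32 in the fresh-frozen-labelled libraries (32 without mitochondrial and globin genes), 0 to 174 in E12.5 brain and 1 to 68 in E16.5 brain.

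Replicate numbers are shared between groups, but with 2 a group they were not taken to pair libraries. The correlation of same-numbered deviations of TPM was -0.038 to 0.037, and it was not computed for edited shares. With a replicate block the median was 1.07 in the fresh-frozen-labelled libraries (69 genes called), 2.09 in E12.5 brain, 0.95 in E16.5 brain (743 called), -1.21 in the fixed embryo and -1.27 for the stage difference. Under the block, IgG over untreated had medians of 0.66 (2 called) and -0.12, and expression by stage 0.93. Depth limits the fixed embryo and E12.5 brain most, where several of the 7 genes rest on under 10 edited reads a library.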
